A study of Mus musculus with 6 samples.

Results

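The genes described here encode 4 families of proteins that handle RNA in the nucleus: the heterogeneous nuclear ribonucleoproteins (Hnrnp genes), the poly(C)-binding proteins (Pcbp genes), the SR splicing factors (Srsf genes) and proteins of the small nuclear ribonucleoproteins (Snrp genes). They were taken by symbol, as every gene of the count table whose symbol starts with Hnrnp, Pcbp, Srsf or Snrp, without symbols that contain -ps or end in os. The rule gave 48 of 55335 genes and used no measured value. Of these, 46 had enough reads to be tested and 2, Snrpf and Srsf12, did not. One of the 46, Snrpert, is annotated as a processed pseudogene and shares 43.3% of its 100-base windows with Snrpe, so its reads cannot be told safely from those of Snrpe. The other 47 are annotated as protein-coding. U1 and tri-snRNP genes whose symbols start with Snrnp are outside the rule and were described as a separate list.

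RNA was sequenced in bulk from CD4 T cells of the colon lamina propria of Rag1 knockout mice, hosts without mature lymphocytes of either the T or the B lineage. Colitis had been induced in these hosts by transfer of naive splenic CD4 T cells from TcfGFP mice, so both groups came from reporter-carrying donor cells and differed in the sort gate. The groups were 3 GFP-positive libraries, labelled TCF7+ and stem-like, and 3 GFP-negative libraries, labelled TCF7- and effector. The labels give no age and leave unstated whether each replicate was a different mouse; the p-values therefore describe the spread among these libraries alone, which may be technical.

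As background, hnRNPs coat nascent transcripts and often repress the use of nearby splice sites, whereas SR proteins bind exonic enhancers and mostly promote it. Sm proteins form the ring that surrounds the small nuclear RNAs of the spliceosome, and a few further proteins belong to the U1 or U2 particle alone. PCBP proteins bind cytosine-rich RNA through KH domains, act in mRNA stability, translation and splicing, and in addition carry iron to ferritin. In T cells, hnRNP L and its relative hnRNP LL are known for controlling the variable exons of CD45.

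Pcbp1 and Hnrnpl had the smallest p-values of the 46 tested genes, and each has a close relative among the 48. To show how far reads can separate the relatives, a stretch of 100 coding bases, the length of 1 sequenced read, is printed for each gene around the longest run that the pair shares, 5′ to 3′ along the coding strand and with the bases that differ in capitals. The sequences are those of GENCODE M21 transcripts on mm10 (GRCm38).
Pcbp1: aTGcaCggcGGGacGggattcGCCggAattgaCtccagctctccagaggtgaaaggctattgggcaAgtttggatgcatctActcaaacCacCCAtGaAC
Pcbp2: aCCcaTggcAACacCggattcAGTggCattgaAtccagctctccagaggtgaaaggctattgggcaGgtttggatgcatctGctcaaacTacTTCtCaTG
Hnrnpl: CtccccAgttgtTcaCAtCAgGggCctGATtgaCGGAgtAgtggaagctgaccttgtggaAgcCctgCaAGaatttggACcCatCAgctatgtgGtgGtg
Hnrnpll: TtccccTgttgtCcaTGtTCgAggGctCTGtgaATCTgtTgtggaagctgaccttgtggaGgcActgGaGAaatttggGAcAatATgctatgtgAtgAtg

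The Pcbp1 stretch lies in the single exon of the gene at chr6:86525066-86525165 on the minus strand, and the Pcbp2 stretch is spread over 3 exons within chr15:102488253-102489787 on the plus strand. They differ at 21 of 100 bases, and the longest identical run is 33 bases. Over 1053 aligned coding bases Pcbp1 and Pcbp2 were 82.3% identical. The Hnrnpl stretch (chr7:28813311-28813866, plus strand, 2 exons) and the Hnrnpll stretch (chr17:80050853-80053609, minus strand, 2 exons) differ at 29 bases, with a longest run of 20. Neither Pcbp1 nor Hnrnpll had a 100-base window in common with the transcripts of any other gene, and Hnrnpl had 0.32% of its windows in common with one.

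Total counts were between 4309500 and 7462076 per library, and the 48 genes held 0.724% to 0.870% of them. Levels of one gene across libraries are given in CPM, counts scaled to a common library total of tested genes with TMM factors (edgeR's usual unit), and levels of different genes are compared in TPM, which the authors scaled by gene length. T cell identity genes held 0.792% to 0.862% of counts in GFP-negative and 0.624% to 0.878% in GFP-positive libraries, and Cd4, the defining co-receptor, stood at 510 to 695 CPM in all 6. The lowest share of identity genes was that of GFP-positive replicate 3, which stood apart: myeloid markers took up 0.653% of counts there, beside 0.0132% to 0.0184% in each of the other 5 libraries, and antigen-presenting, epithelial and stromal markers were also highest there. Values without that library are given where a result turns on it. Tcf7, the gene of the reporter, had 237, 183 and 141 CPM in GFP-positive and 121, 141 and 71.3 CPM in GFP-negative libraries, so that the lowest GFP-positive and the highest GFP-negative library were level.

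Pcbp1 was the only one of the 46 tested genes that passed the test between the gates, and it was lower in GFP-positive cells. Replicates 1 to 3 of the GFP-negative gate had 263, 310.4 and 376 CPM, and those of the GFP-positive gate 85.4, 85.3 and 139 CPM. All 3 GFP-positive libraries lay below all 3 GFP-negative ones, with a wide gap. The means were 316 ± 56.4 and 103 ± 30.9 CPM (SD, n = 3 each), a 3.07-fold difference, on 371 to 1713 counts per library. The log2 fold change, GFP-positive minus GFP-negative as everywhere below, was -1.61 ± 0.21 (SE; adjusted p = 0.0125 over all genes by edgeR's quasi-likelihood test). Of the 46 genes 1 was called lower and 0 higher, where 0.0722% and 0.0361% of all 11074 tested genes were. At an unadjusted p of 0.05, 6 were lower and 0 higher by edgeR, beside 5.97% and 4.31% of all tested genes. DESeq2 called 2 of the genes lower, Pcbp1 and Hnrnpl, and 0 higher, beside 0.845% and 0.435% of the genes it tested. With no filter on low counts edgeR called the same pair lower and 0 higher, beside 0.982% and 0.796%.

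The Pcbp1 call was lost when any library other than GFP-positive replicate 3 was left out, while its direction stayed the same. Without GFP-negative replicate 1, 2 or 3 the log2 fold change was -1.74, -1.64 or -1.47, with edgeR adjusted p-values of 0.0523, 0.103 and 0.0705; calls were then few among all genes, at 0.00868% lower without replicate 1 and 0.0253% higher without replicate 2. Without GFP-positive replicate 1 or 2 it was -1.50 in each case, with edgeR adjusted p-values of 0.113 and 0.165. In these runs, and without GFP-negative replicate 3, 0% of all tested genes were called in either direction. Once the GFP-positive library rich in myeloid transcripts (replicate 3) was left out, the log2 fold change was -1.88 (edgeR adjusted p = 0.00193). By limma on log2(TPM + 1), which called 0 of the 48 genes and, as higher, 0.00706% of all genes it tested, it was -1.70 with an adjusted p of 0.123.

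The gene of Pcbp1 lies at chr6:86524492-86526321 on the minus strand and consists of 1 exon. An antisense gene, 1600020E01Rik, overlaps 75 bases of that exon, which is 4.10% of its length. The library preparation does not record strand, so reads of the 2 genes cannot be told apart over those bases.

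The other PCBP genes showed no such difference. Pcbp2, which shares the RNA-binding and iron-carrying roles of Pcbp1, had 70.4, 86.4 and 91.7 CPM in the GFP-negative libraries and 73.9, 98.6 and 99.1 CPM in the GFP-positive ones. Its groups overlapped (log2 fold change 0.13 ± 0.19; edgeR adjusted p = 0.868). Exons of Map3k12 on the other strand cover 30.2% of its exonic length. Pcbp4 stood at 16.2 ± 4.92 and 14.7 ± 0.898 CPM (SD, n = 3 each) in GFP-negative and GFP-positive libraries. Pcbp3 was near the limit of detection, with 3 to 33 counts per library.

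Per length, Pcbp1 was the dominant PCBP transcript in every library, by different margins. It made up 87.5%, 88.4% and 90.6% of the summed TPM of the 4 PCBP genes in the GFP-negative gate (replicates 1 to 3), and 70.9%, 65.8% and 77.0% in the GFP-positive gate. The ratio of Pcbp1 to Pcbp2 in TPM was 10.6, 10.2 and 11.7 for GFP-negative libraries, replicates 1 to 3, and 3.28, 2.46 and 3.98 for GFP-positive ones. These ratios follow from the change of Pcbp1 and are not a separate result.

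**Figure D1:**
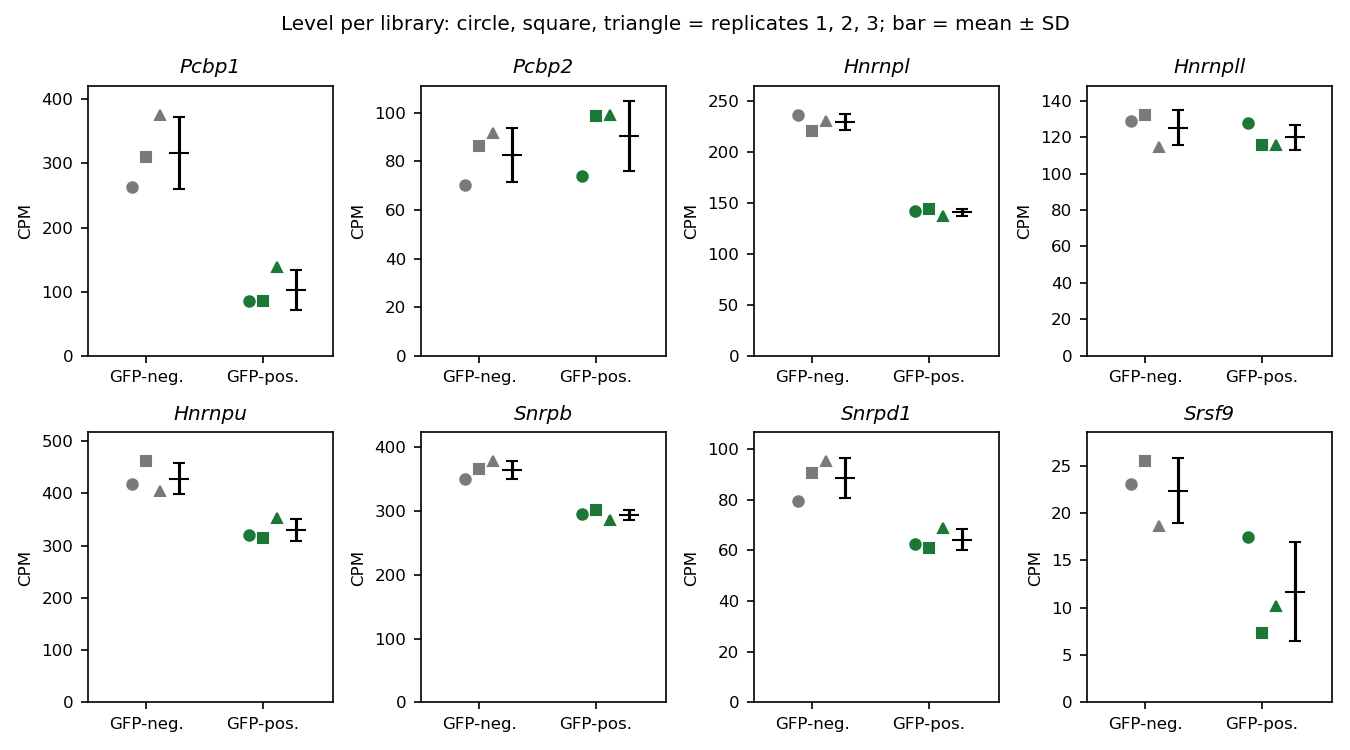
CPM of 8 genes in each library (y axes start at 0; grey GFP-negative, green GFP-positive; circle, square and triangle are replicates 1, 2 and 3; bars are mean ± SD, n = 3). Pcbp1 and Hnrnpl separate the gates by wide margins, while their relatives Pcbp2 and Hnrnpll overlap. Hnrnpu, Snrpb, Snrpd1 and Srsf9 separate by smaller margins. Only Pcbp1 was called in the main test.

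Hnrnpl, which encodes a splicing repressor that binds CA-rich RNA, was the next in order of p. Its level was 236, 221 and 230.5 CPM in the GFP-negative libraries, replicates 1 to 3, against 141, 143 and 137 CPM in the GFP-positive ones. The spread within each gate was small beside the distance between them, and the groups did not overlap. The means were 229 ± 7.86 and 141 ± 3.40 CPM (SD, n = 3 each), and the log2 fold change was -0.70 ± 0.13 (SE; edgeR adjusted p = 0.0801), so it was not called. With the replicate number as a block, Hnrnpl was called lower (log2 fold change -0.70, edgeR adjusted p = 0.0359). That pairing was inferred from these same data and is not given by the labels. Under the block 2 of the 46 genes were called lower, Pcbp1 and Hnrnpl, beside 0.542% of all tested genes. DESeq2 (adjusted p = 0.00124) called it as well, as did edgeR with no filter on low counts (adjusted p = 0.00444). It was not called with any 1 library left out, and the edgeR adjusted p then ranged from 0.066 to 0.333.

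Hnrnpll, the relative of Hnrnpl induced in activated T cells, had nearly the same level in both gates. Its level was 129, 132 and 114 CPM in the GFP-negative libraries against 128, 116 and 116 CPM in the GFP-positive ones. The groups overlapped, and the log2 fold change was -0.06 ± 0.15 (SE), with an edgeR adjusted p of 0.925. In TPM, Hnrnpl exceeded Hnrnpll 3.59, 3.27 and 3.95 times in GFP-negative and 2.17, 2.43 and 2.32 times in GFP-positive libraries. The gene of Hnrnpl lies at chr7:28808541-28822266 on the plus strand, and an antisense gene overlaps 0.54% of its exonic length.

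Of the hnRNP genes as a whole, 20 were tested, none was called, and the most abundant lay close together in both gates. Hnrnpa2b1, an RNA-binding protein of splicing and RNA transport, had the highest TPM of all 48 genes (438 to 522 TPM). It stood at 1118, 1124 and 1202 CPM in GFP-negative and at 1084, 1079.6 and 1123 CPM in GFP-positive libraries, groups that overlapped (log2 fold change -0.07 ± 0.13, SE). Hnrnpa1, which competes with SR proteins over splice sites, had 287 ± 50.3 and 248 ± 50.4 CPM (SD, n = 3 each), and 25.9% of its 100-base windows occur in transcripts of 11 other genes. Hnrnpk, a KH-domain protein related to the PCBP family, had 940.2 ± 42.3 and 869 ± 87.5 CPM, and Hnrnpf, which binds G-rich RNA, 281 ± 24.0 and 253 ± 44.3 CPM. Transcripts of other genes hold 49.4% of the 100-base windows of Hnrnpf and 11.9% of those of Hnrnpk.

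Hnrnpc, which binds uridine tracts in nascent RNA, varied little within each gate. Its values were 261, 254 and 259 CPM in GFP-negative and 246, 251 and 248 CPM in GFP-positive libraries. The groups did not overlap, but the log2 fold change was only -0.06 ± 0.13 (SE), and edgeR did not call it (adjusted p = 0.925). Hnrnpm, a splicing regulator, had 142 ± 22.9 and 149 ± 12.3 CPM (SD, n = 3 each). Exons of March2 on the same strand cover 14.7% of its exonic length.

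The 3 genes of the hnRNP U family all had negative log2 fold changes, from -0.38 to -0.50, where 48.4% of all tested genes were negative. Hnrnpu, a scaffold protein of nuclear RNA and chromatin, had 418, 461 and 405 CPM in the GFP-negative libraries and 321, 314 and 354 CPM in the GFP-positive ones. Its groups did not overlap (log2 fold change -0.38 ± 0.13, SE), yet it did not pass over all genes (edgeR adjusted p = 0.353). Hnrnpul1 and Hnrnpul2, its relatives, overlapped between the gates.

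Hnrnpab, an hnRNP of the A/B and D group, is named because of 1 library and was chosen after its values were seen. It had 118, 125 and 146 CPM in the GFP-negative libraries and 33.1, 59.5 and 132 CPM in the GFP-positive ones. GFP-positive replicate 3 lay among the GFP-negative libraries, and the other 2 lay far below them. In all 6 libraries the log2 fold change was -0.79 ± 0.51 (SE; edgeR adjusted p = 0.69). Leaving out that library, where myeloid markers made up 0.653% of counts, gave -1.49 (edgeR adjusted p = 0.0326), and 2 members, Hnrnpab and Pcbp1, were called lower, beside 0.255% of the genes tested there. The part of the myeloid transcripts in the value of that library was not tested. Exons of Phykpl on the other strand cover 29.1% of the exonic length of Hnrnpab.

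**Figure D2:**
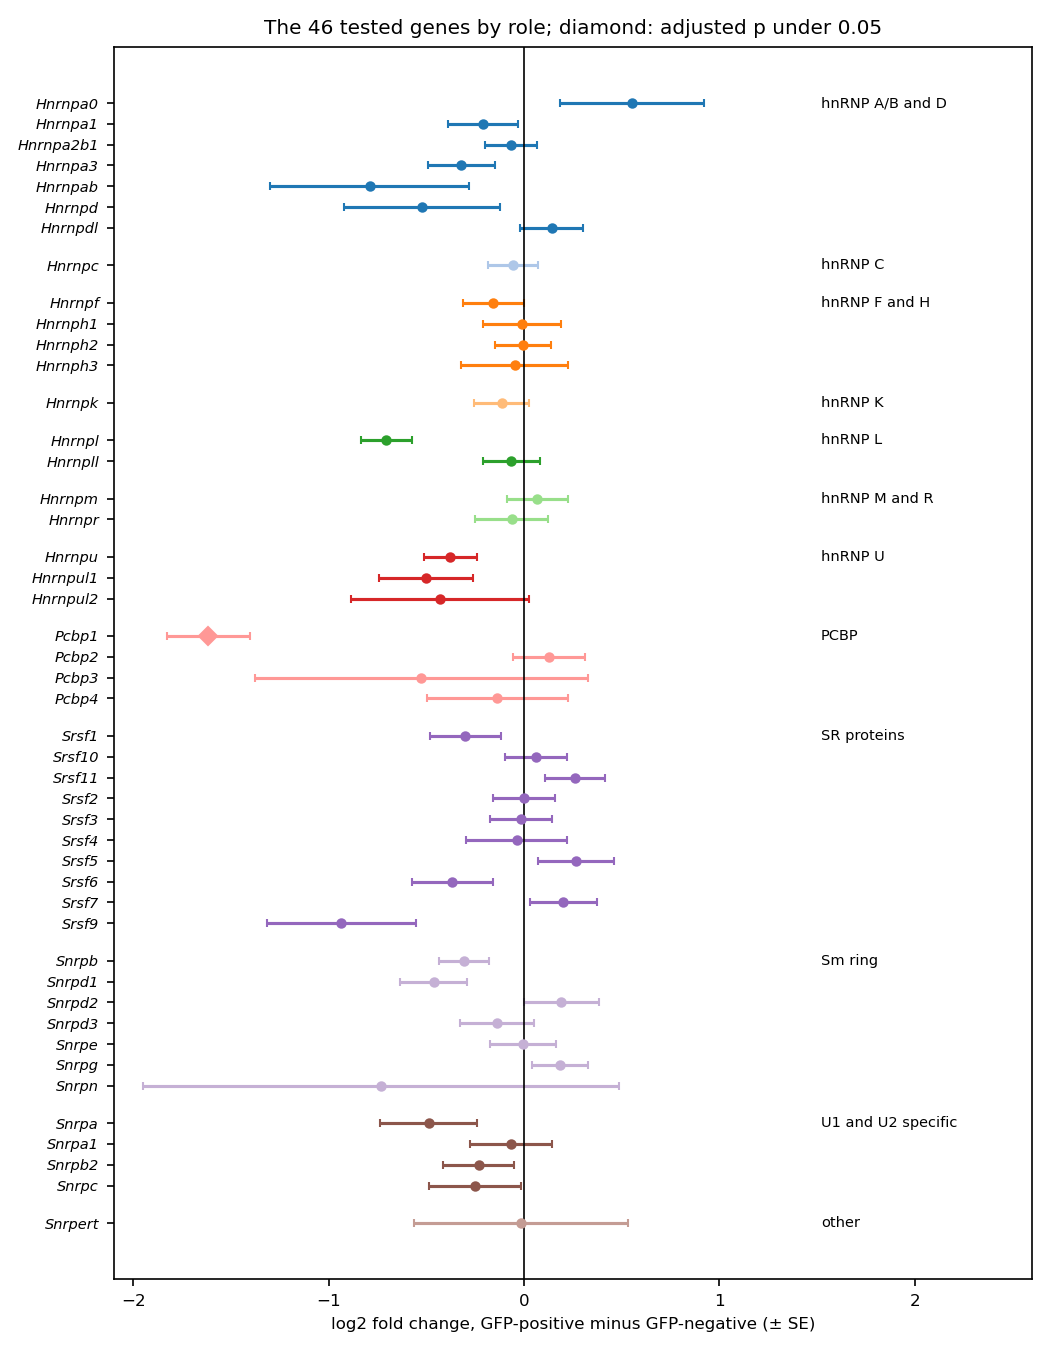
Log2 fold change (GFP-positive minus GFP-negative, ± SE, n = 3 libraries each) of the 46 tested genes, grouped by role; the diamond marks an adjusted p under 0.05. Only Pcbp1, at -1.61, carries a diamond; 36 genes lie below 0 and 10 above.

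The SR proteins were split around 0 and none was called. Of 10 tested, 4 had positive and 6 negative log2 fold changes, with a median of -0.01, where 48.4% of all tested genes were negative. Srsf9, a small SR protein, differed most. It had 23.1, 25.5 and 18.6 CPM in the GFP-negative libraries and 17.5, 7.36 and 10.2 CPM in the GFP-positive ones. The groups did not overlap, by a margin of little more than 1 CPM, and the log2 fold change was -0.93 ± 0.38 (SE; edgeR adjusted p = 0.42) on 32 to 119 counts per library.

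Srsf2 and Srsf3 had nearly equal means in both gates, and Srsf1 was lower on average in GFP-positive libraries without being called. Srsf2, which binds exonic enhancers and acts in transcription as well, had 113.7 ± 4.44 CPM in GFP-negative and 113.6 ± 15.8 CPM in GFP-positive libraries (SD, n = 3 each). Exons of Mettl23 and Mfsd11 on the other strand cover 25.3% of the exonic length of Srsf2. Srsf3, the shortest of the classical SR proteins and a factor of mRNA export, had 408.5 ± 66.5 and 404.6 ± 47.2 CPM. Srsf1, a regulator of constitutive and alternative splicing, stood at 154, 132 and 120 CPM in GFP-negative and at 85.0, 113 and 132 CPM in GFP-positive libraries, with overlap (log2 fold change -0.30 ± 0.18; edgeR adjusted p = 0.638).

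Srsf7, an SR protein with a zinc knuckle, had the highest TPM of its family (271 to 486 TPM). Its values were 420.0, 448 and 352 CPM in GFP-negative and 576, 452 and 375 CPM in GFP-positive libraries, and they overlapped (log2 fold change 0.20 ± 0.17, SE). Srsf5 had 298 ± 85.5 and 359 ± 49.4 CPM (SD, n = 3 each; log2 fold change 0.27 ± 0.20). Srsf11 had a similar log2 fold change of 0.26 ± 0.15 and overlapped between the gates, with GFP-positive replicate 3 at 221 CPM and the other GFP-positive libraries at 291 and 301 CPM. Srsf12, the remaining member, had 0 to 15 counts per library and was not tested.

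Of 7 tested genes of the Sm ring, 2 had groups that did not overlap, both lower in GFP-positive libraries. Neither was called, and 8.80% of all tested genes were lower without overlap. Snrpb, which encodes SmB, had 349, 365 and 377 CPM in the GFP-negative libraries and 295, 301 and 286 CPM in the GFP-positive ones. The difference was small but larger than the spread within either gate (log2 fold change -0.31 ± 0.13, SE; edgeR adjusted p = 0.432). Snrpd1, which encodes SmD1, stood at 79.7, 90.7 and 95.2 CPM in GFP-negative and at 62.7, 61.2 and 68.8 CPM in GFP-positive libraries (log2 fold change -0.46 ± 0.17; edgeR adjusted p = 0.371). The partner of SmD1 in the ring, encoded by Snrpd2, went the other way on average, with 88.1 ± 18.1 and 100.5 ± 15.8 CPM (SD, n = 3 each) and overlapping groups. Snrpe and Snrpg, at mean levels of 459 and 473 TPM close to the 476 TPM of Snrpb, overlapped as well.

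Snrpf, which encodes SmF of the same ring, stood far below its partners other than Snrpn in this table. It had 0.65 to 18.4 TPM on 1 to 43 counts per library. Exons of Ccdc38 and of the lincRNA 4933408J17Rik on the other strand cover 85.4% of its exonic length, and 78.3% of its 100-base windows occur in transcripts of other genes. Its count is therefore uncertain. Snrpn, an imprinted relative of Snrpb known from neurons, had 0 to 13 counts per library and shares exons with Snurf.

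The 4 genes of proteins specific to U1 or U2 all had negative log2 fold changes, from -0.07 to -0.49. Among all tested genes 48.4% were negative. All 4 overlapped between the gates. Snrpb2, a U2 protein with the highest TPM among them, had 98.8 ± 16.2 and 84.2 ± 10.8 CPM (SD, n = 3 each). Snrpa, of the U1 particle, spread widely in GFP-negative libraries, from 59.1 to 110.5 CPM, and had 46.2 to 67.0 CPM in GFP-positive ones.

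**Figure D3:**
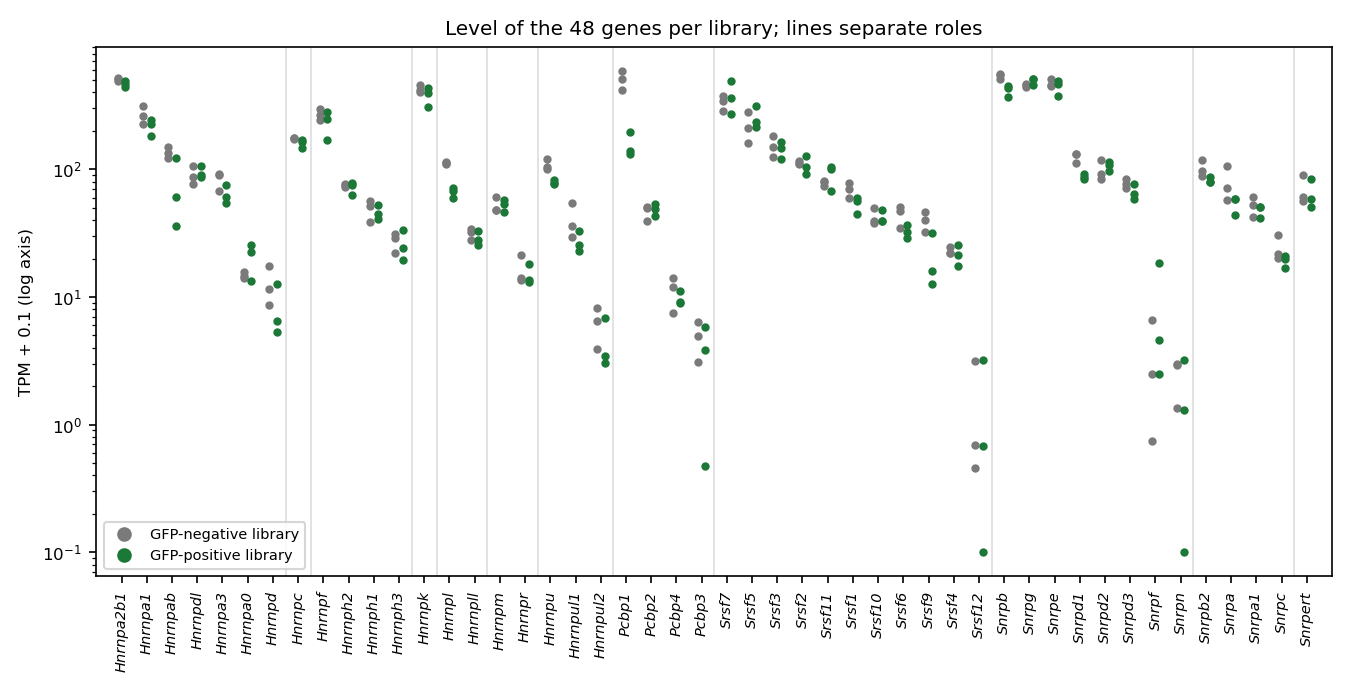
TPM + 0.1 on a log axis for each of the 48 genes in each library (grey GFP-negative, green GFP-positive), ordered within roles by mean TPM. Hnrnpa2b1, Snrpb, Snrpg and Snrpe have the highest levels, and Pcbp1 shows the widest gap between the gates among abundant genes. Snrpf and Snrpn lie far below the other ring proteins.

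As a list, the genes leaned towards lower values in GFP-positive cells. Of 46 tested, 36 (78.3%) had a negative log2 fold change, beside 48.4% of all tested genes, and the median was -0.09, beside 0.02. The groups did not overlap for 7 of them (15.2%), all lower in GFP-positive cells, beside 8.80% of all tested genes that were lower without overlap and 7.25% that were higher. The 7 were Pcbp1, Hnrnpl, Hnrnpu, Hnrnpc, Snrpd1, Snrpb and Srsf9. Most differences were small: 30 of 46 (65.2%) lay within 0.3 of 0 on the log2 scale, as did 54.4% of all tested genes. The summed TPM of the 48 genes was 5991, 6391 and 6409 for the GFP-negative libraries and 5535, 5437 and 5132 for the GFP-positive ones. With Pcbp1 left out the sums were 5575, 5883 and 5822 against 5395, 5306 and 4937 TPM, still without overlap. TPM values are shares of a fixed total, and the lowest sum was that of GFP-positive replicate 3, with 0.653% of its counts on myeloid markers; their part in the sum was not tested.

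**Figure D4:**
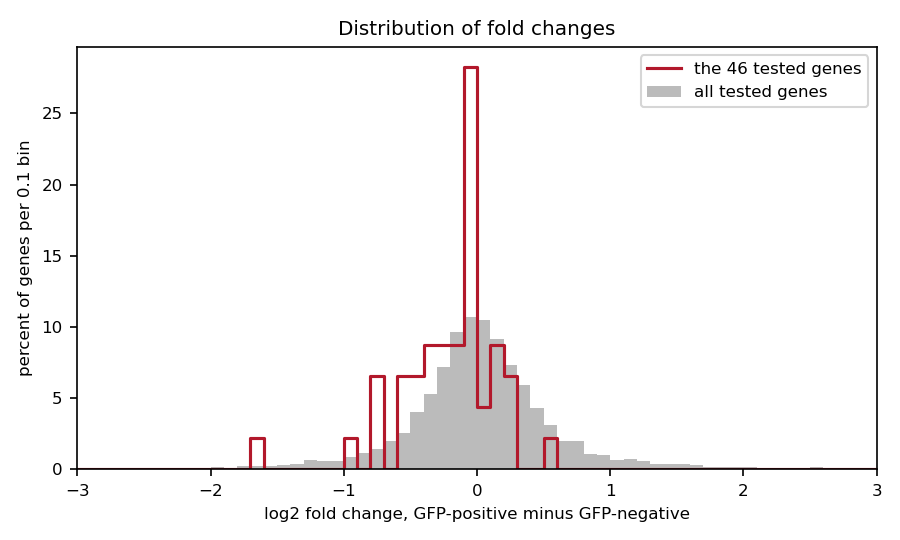
Percent of genes per bin of 0.1 in log2 fold change (GFP-positive minus GFP-negative), for all 11074 tested genes (grey bars; values beyond the axis are not drawn) and the 46 tested genes (red line). The red line peaks just below 0 and has more weight to the left, with Pcbp1 alone near -1.6.

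Cell cycle genes also had lower values in GFP-positive cells. All 19 genes of a proliferation list had negative log2 fold changes, with a median of -1.09, beside 48.4% of all tested genes that were negative. By edgeR 0 were called and 14 had an unadjusted p below 0.05, all lower, beside 5.97% of all tested genes. The list held 0.129%, 0.233% and 0.296% of counts in the GFP-negative libraries and 0.0986%, 0.124% and 0.114% in the GFP-positive ones, replicates 1 to 3. The groups did not overlap in this share. The part of proliferation in the lower levels of the other genes was not tested. In bulk RNA, fewer cells that express a gene and less of its RNA per cell cannot be told apart.

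Other genes of the splicing machinery were not called in either direction. For the counts of signs below, 48.4% of all tested genes had a negative log2 fold change. Among 13 factors of U2 and branch point recognition 8 were negative (median -0.05), with no unadjusted edgeR p below 0.05, and Sf3b4, of the U2 particle, stood at 90.8 ± 9.83 and 71.9 ± 6.54 CPM (SD, n = 3 each) in GFP-negative and GFP-positive libraries. Among 16 partners of U1 and the tri-snRNP 11 were negative (median -0.10). Luc7l, a U1-associated protein, stood at 57.6, 64.4 and 45.0 CPM in GFP-negative and at 81.9, 81.8 and 81.5 CPM in GFP-positive libraries, without overlap (log2 fold change 0.56 ± 0.19; edgeR adjusted p = 0.327). Snrnp40, of the U5 particle, lay without overlap in the other direction (-0.49 ± 0.17; edgeR adjusted p = 0.345). Of 8 LSm proteins 7 were negative (median -0.18), and of 15 tested genes of snRNP assembly 9 were (median -0.07).

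Kinases of SR proteins leaned the other way. All 8 genes of that list, which includes the SR protein importer Tnpo3, had positive log2 fold changes (median 0.27). By edgeR 0 were called and 1 was higher with an unadjusted p below 0.05, beside 4.31% of all tested genes. Srpk1, the kinase that phosphorylates SR proteins in the cytoplasm, stood at 206, 218 and 220.4 CPM in GFP-negative and at 277, 258 and 249.6 CPM in GFP-positive libraries, without overlap (log2 fold change 0.28 ± 0.13; edgeR adjusted p = 0.485). Of 10 SR-related proteins 7 were positive (median 0.09), and Tra2a, a splicing activator, stood at 63.6 ± 1.03 and 87.8 ± 13.7 CPM (SD, n = 3 each) without overlap (edgeR adjusted p = 0.386).

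Among 25 other RNA-binding regulators 15 were negative (median -0.06), beside 48.4% of all tested genes, and none was called. By edgeR 3 had an unadjusted p below 0.05, all lower, beside 5.97% of all tested genes. Nono, a protein of paraspeckles, stood at 274, 266 and 266 CPM in GFP-negative and at 185, 247 and 193 CPM in GFP-positive libraries (edgeR adjusted p = 0.41). Ptbp1, which is also known as hnRNP I and represses exons, had 182 ± 16.9 and 145 ± 12.6 CPM (SD, n = 3 each), without overlap. Syncrip, also known as hnRNP Q, had 78.0 ± 19.8 and 55.6 ± 4.29 CPM, with overlap.

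Because PCBP proteins deliver iron to ferritin, genes of iron handling were also read. Of 9 tested 7 were positive (median 0.22) and none was called. Ftl1, the ferritin light chain, had 268, 223 and 227 CPM in the GFP-negative libraries and 375, 331 and 493 CPM in the GFP-positive ones. Its groups did not overlap (log2 fold change 0.74 ± 0.17, SE; edgeR adjusted p = 0.123). The 493 CPM was that of the library rich in myeloid transcripts, whose part in the difference was not tested. The 375 and 331 CPM of the remaining GFP-positive libraries also lay above every GFP-negative value. The list held 0.556% of counts in the myeloid-rich library, beside 0.205% to 0.254% in each of the other 5. Fth1, the heavy chain, was at 5104 CPM in the GFP-positive library rich in myeloid transcripts and at 1489 to 1902 CPM in the other 5. Tfrc, the transferrin receptor, had 69.7 ± 14.6 and 46.5 ± 11.8 CPM (SD, n = 3 each), with overlap.

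Promoter windows of 300 bases, from 250 before to 50 after a start site (RefSeq, GRCm38.p6), were available for 41 of the 48 genes, 58 windows in all. Their median GC content was 62.7%, beside 52.7% over 32851 windows of all genes. Motifs were searched as exact letters on both strands. The TCF/LEF motif CTTTGAT occurred in 1 of the 58 windows, at Snrpa, and in 3.73% of all windows. The ETS motif CCGGAAG was in 17 of the 58 (29.3%) and in 8.86% of all, and the GC box GGGCGG in 42 (72.4%) and 35.7%. Some genes have more than 1 window, and windows of the same gene can overlap, so these are shares of windows and not of genes. The window of Pcbp1 held CCGGAAG and GGGCGG, that of Hnrnpl GGGCGG. These matches describe the letters of the windows and not binding.

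**Figure D5:**
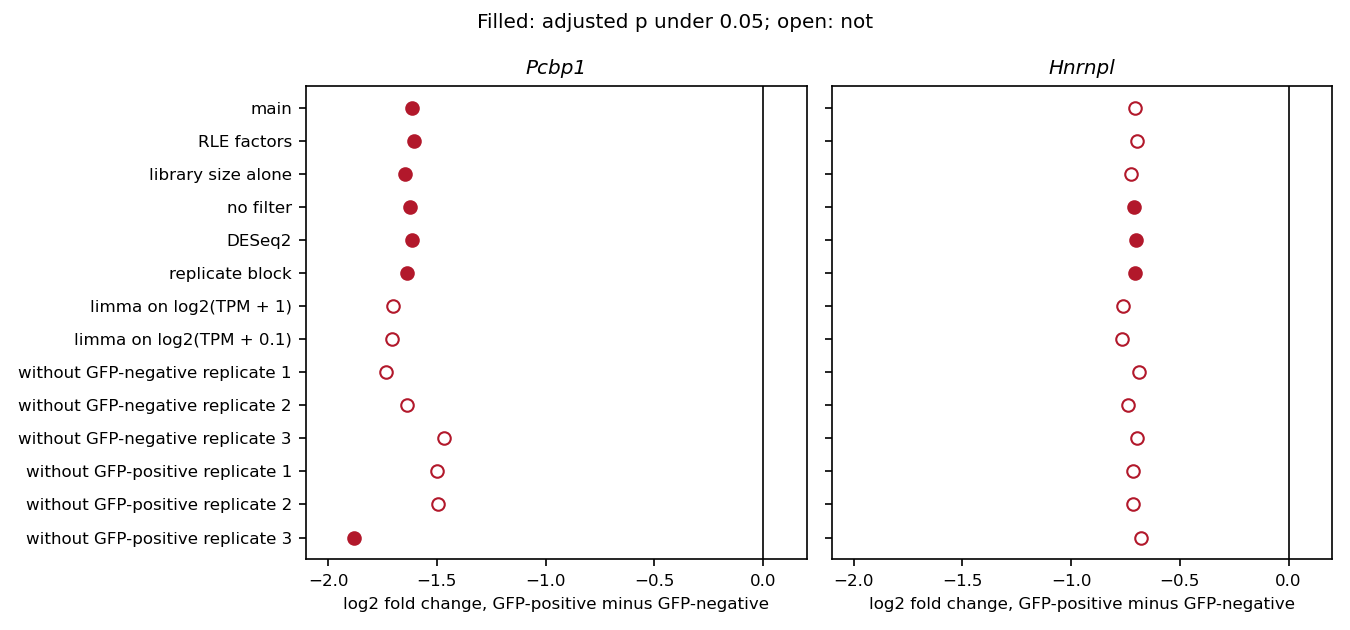
Log2 fold change (GFP-positive minus GFP-negative) of Pcbp1 and Hnrnpl under each way of processing the data; main is the test described above, filled points have an adjusted p under 0.05. Every point lies below 0, from -1.88 to -1.47 for Pcbp1 and from -0.77 to -0.68 for Hnrnpl, while the calls differ between settings.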

How the data were processed

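The authors deposited raw counts per gene, used for all tests, and TPM, used to compare genes. The build mm10 and the tools STAR 2.7.10b, fastp 0.23.3, deepTools 3.5.1 and SAMtools 1.17 are named per the submitters' processing notes. Which counter and which annotation gave the counts is not given in the sources used here. Per the labels' protocols, cDNA was amplified by PCR without molecular identifiers or strand, so limits from counts cover counting error only.

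Groups came from the sample titles. The main test was edgeR 4.0.16 (R 4.3.3): quasi-likelihood F-test with robust dispersions, TMM factors, the default filter by group (minimum count 10) and group as the only term, adjusted by Benjamini-Hochberg over 11074 genes, threshold 0.05. SE was derived from the log2 fold change and F. Same-numbered libraries of the 2 gates deviated together (r across genes 0.108, 0.102 and 0.11; other pairs -0.133 to 0.0249), so the replicate block was treated as a pairing inferred from the data, not from the labels. No libraries were duplicates (chi-square per degree of freedom at least 10.7). DESeq2 1.42.0 and limma 3.58.1 were alternatives; limma read log2 TPM with a pseudocount of 1 or 0.1, for genes averaging 1 TPM or more. The edgeR and DESeq2 fits were also run on counts simulated from the mean levels and edgeR dispersions of these data. A criterion to pass was set for edgeR alone. Such counts follow edgeR's own model, so the run cannot show how either fit performs where real counts depart from it.

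All 48 identifiers matched GENCODE M21 with their version. Exon overlap and exact 100-base windows were computed against it on both strands, and coding sequences were aligned with Biopython 1.88. All 181 list genes were found in the table. Named members were those called or with an unadjusted p under 0.05, the highest TPM of each role and a panel of 16; of other lists, up to 3 with the smallest p. Hnrnpab, Hnrnpul1, Hnrnpul2, Srsf11, Srsf12, Snrpa, Snrpd2, Snrpe, Snrpf and Snrpg lie outside this rule and were added after their values were seen. Members and lists were chosen with earlier results of these data known.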

Additional observations from a re-analysis of the deposited data

How the results depend on the processing

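Of the 46 genes, 0 were called higher under any alternative run (RLE factors, library size alone, no filter, DESeq2, the replicate block, limma on TPM, and each library left out). Among all tested genes, 0 to 167 were called higher. The count of members called lower was 1 in the main test, with RLE factors and with library size alone. Among all tested genes it was then 8, 8 and 14. With no filter, DESeq2 and the replicate block 2 members were called lower, Pcbp1 and Hnrnpl each time. The shares of all tested genes were 0.982%, 0.845% and 0.542%. By limma on log2(TPM + 1) and on log2(TPM + 0.1) 0 members and 0 of all genes were called lower. Limma and DESeq2 read other numbers of genes, and the cause was not tested. With 1 library left out the count of members called lower ranged from 0 to 2, beside 0% to 0.255% of all tested genes. The number of genes without overlap, 7 in the main data, ranged from 11 to 16 with 1 library left out, where fewer samples must separate and 23.5% to 29.4% of all tested genes did not overlap. The median log2 fold change stayed negative, from -0.15 to -0.07. The block changed no other call among the named members.

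Signs of values near 0 reversed. Srsf2 was 0.0072 with RLE factors and 0.0021 with DESeq2. With 1 library left out, Srsf2 ranged from -0.0815 to 0.109, Srsf3 from -0.119 to 0.105, Hnrnpm from -0.0153 to 0.213, Pcbp3 from -1.22 to 0.0183 and Pcbp4 from -0.347 to 0.0797. Pcbp3 and Snrpn had few reads and wide errors (SE of the log2 fold change 0.85 and 1.22), so a small difference in them could not be resolved at this depth. Srsf12 and Snrpf had too few reads to be tested. Counts of genes with overlapping or copied exons may include reads of other genes.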
